A study of Homo sapiens with 14 samples.

Results

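Exposure of breast cancer cells to 4-hydroxytamoxifen for 2 h was compared with vehicle on 8 of the 14 expression arrays of the series. These 8 are the arrays of replicate numbers 1 and 3, the numbers present in all 4 groups. They were balanced, with 4 treated and 4 untreated arrays, and each of the 4 groups gave 2. The cells were LY2, a breast cancer line that the labels call tamoxifen resistant, so all results are from 1 line. Every group was propagated in 10 nM 4-hydroxytamoxifen in medium with charcoal-stripped serum and no phenol red, then kept without the drug for 72 h. The cells were transfected with 40 nM of a scrambled siRNA (control siRNA) or an siRNA against SRC-1 (SRC1 siRNA). After 24 h they received 100 nM 4-hydroxytamoxifen (tamoxifen) or an ethanol vehicle (untreated). The groups were therefore control siRNA untreated, control siRNA tamoxifen, SRC1 siRNA untreated and SRC1 siRNA tamoxifen. The arrays held 54613 probe sets other than array controls, and these name 19775 genes. The labels call the replicates biological without naming separate cultures, so p-values measure the spread between these arrays.

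Tamoxifen, through its active form 4-hydroxytamoxifen, binds the estrogen receptor in place of estradiol. The bound receptor can recruit corepressors or coactivators at estrogen-responsive genes, and the drug acts as an antagonist at some genes and as a partial agonist at others. SRC-1, the product of NCOA1, is a coactivator of the p160 family that binds steroid receptors.

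The siRNA groups carried the labelled difference. The mean log2 signal of the 4 NCOA1 probe sets was 7.69 ± 0.34 with SRC1 siRNA and 9.05 ± 0.25 with control siRNA (SD, n = 4 arrays each). It was 61.1% lower on the linear scale (exact two-sided permutation test, p = 0.0286, the smallest that 70 regroupings allow). ESR1, the estrogen receptor itself, had a log2 signal near 12.65 and differed by -0.03 ± 0.07 (SE) between treated and untreated arrays. All 20 luminal epithelial markers lay above the median probe set mean of 3.47, and the list mean was 10.98 to 11.05 on untreated and 10.98 to 11.06 on treated arrays. Of markers of other cells, 1 of 15 fibroblast, 2 of 12 immune and 1 of 11 endothelial genes lay above that median. The highest were COL1A1 at 10.93, CD8A at 8.87 and EMCN at 4.10. In these bulk samples fewer cells of a type and less RNA per cell cannot be told apart. The arrays of replicate number 4, which lie outside the comparison, stood apart at the 12 genes named higher, as shown beside the results they touch. These genes were picked on the arrays of numbers 1 and 3, and 9 of them did not pass the test.

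Promoter windows of the 12 genes named higher and the 12 named lower below were read from RefSeq on GRCh38.p14, as 300 bases that span 250 bases before to 50 after each transcript start. For the higher set, 10 genes had 16 windows, and for the lower set, 10 genes had 17. SMTNL2, IGH, HOXB9 and CDAN1 were not matched. AGGTCA on either strand, 1 arm of the palindromic estrogen response element, was in 3 of the 16 windows, 18.8% of them against 13.8% of all 35116 windows. Those 3 belong to FCGR2B, LINC01588 and RARA, and each of these genes also had a window at another transcript start without AGGTCA. Only the bases before the start with the match are shown. They are given because the first and second of these genes passed the test and RARA encodes a nuclear receptor. FRAT1, of the lower set, is shown because it held the only cAMP response element, TGACGTCA, a motif in 1.85% of all windows. Each sequence runs 5′ to 3′ on the strand of the gene, with AGGTCA in capitals. In FRAT1 the capitals mark TGACGTCA and a GCGTG match on the opposite strand, near the upstream end. LINC01588 holds AGGTCA on the opposite strand, so it reads TGACCT here.
FCGR2B, chr1:161646993-161647242, plus strand: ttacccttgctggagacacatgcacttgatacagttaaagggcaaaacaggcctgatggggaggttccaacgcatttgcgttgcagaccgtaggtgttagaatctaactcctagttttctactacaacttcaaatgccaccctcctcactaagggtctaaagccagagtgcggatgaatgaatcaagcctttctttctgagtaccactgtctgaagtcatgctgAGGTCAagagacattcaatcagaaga
LINC01588, chr14:49993135-49993384, minus strand: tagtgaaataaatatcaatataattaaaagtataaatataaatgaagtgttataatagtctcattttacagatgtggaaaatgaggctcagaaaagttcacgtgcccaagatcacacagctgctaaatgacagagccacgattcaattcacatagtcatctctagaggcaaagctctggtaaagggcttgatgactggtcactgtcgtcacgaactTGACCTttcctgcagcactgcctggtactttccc
RARA, chr17:40308930-40309179, plus strand: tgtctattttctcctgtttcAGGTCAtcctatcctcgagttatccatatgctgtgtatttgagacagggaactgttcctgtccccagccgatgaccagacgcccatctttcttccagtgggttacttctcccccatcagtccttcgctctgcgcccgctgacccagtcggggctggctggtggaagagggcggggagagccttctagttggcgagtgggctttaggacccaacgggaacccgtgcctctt
FRAT1, chr10:97319021-97319270, plus strand: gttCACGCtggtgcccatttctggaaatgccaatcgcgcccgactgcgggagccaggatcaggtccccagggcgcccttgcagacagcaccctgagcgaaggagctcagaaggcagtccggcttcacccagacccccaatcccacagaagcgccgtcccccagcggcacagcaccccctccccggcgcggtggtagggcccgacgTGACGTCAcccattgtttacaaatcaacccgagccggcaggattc

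The complete estrogen response element was in 0 of the 16 windows of the higher set and in 0.0313% of all windows. The AP-1 site TGACTCA, TGACGTCA, the EGR site GCGTGGGCG and the serum response element were in 0 of the 16 as well, against 4.95%, 1.85%, 0.795% and 0.0342% of all windows. The core of the dioxin response element, GCGTG, which the EGR site contains, was in 7 of the 16 windows (43.8%, against 36.5% of all). It was in 9 of the 17 windows of the lower set (52.9%). In the lower set AGGTCA was in a window of AFF3, TGACTCA in one of SLITRK6 and GCGTGGGCG in one of THBS1. A match describes the letters only, and the lack of one says only that these letters are not in the window.

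On the arrays of replicate numbers 1 and 3, the signal of 3 probe sets was higher after tamoxifen and passed the test. They are annotated to SMTNL2, a smoothelin-like gene, LINC01588, a long non-coding RNA, and FCGR2B, an inhibitory low-affinity Fc gamma receptor. Their signals were 2.71-fold, 2.36-fold and 2.14-fold higher in treated cells over both siRNAs. These were the only probe sets that passed an adjusted p of 0.05 (limma with siRNA and replicate number as terms, Benjamini-Hochberg over 54613 probe sets), 0.00549% of those tested. In the other direction limma called 0 probe sets. An unadjusted p under 0.05 was reached by 1583 higher probe sets (2.9%) and 1822 lower ones (3.34%), 6.23% in all. The changes were small. Treated signal was 2-fold or more above untreated for 10 probe sets and 2-fold or more below it for 3, and the median change of all probe sets was -0.0015 on the log2 scale. With each control siRNA array left out in turn, or SRC1 siRNA tamoxifen replicate 1, 0 probe sets passed. Without the SRC1 siRNA untreated replicate 1 or 3 array, 2 and 1 passed. Without SRC1 siRNA tamoxifen replicate 3, 2 did, LINC01588 and a lower one, PDE4B, with a change of -1.33.

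**Figure D1:**
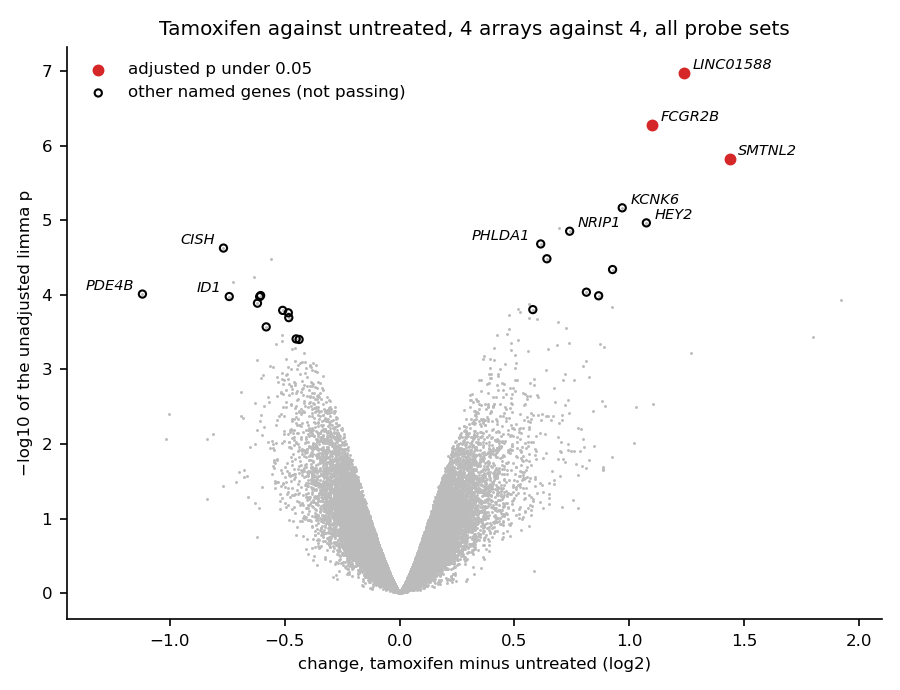
Each point is 1 of 54613 probe sets, with its log2 change (treated minus untreated, 4 arrays each) on the horizontal axis and −log10 of its unadjusted limma p on the vertical axis. The 3 red points, SMTNL2, LINC01588 and FCGR2B, passed an adjusted p of 0.05, and circles mark the other named genes, of which PDE4B at -1.12 lies farthest to the left.

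SMTNL2 had log2 signals of 5.83 and 5.70 on the untreated control siRNA arrays of replicates 1 and 3, and 7.09 and 7.27 on the treated ones. With SRC1 siRNA the signals were 5.06 and 4.87 untreated and 6.16 and 6.68 treated. All 4 treated arrays were above all 4 untreated ones, although the treated SRC1 siRNA arrays stayed below the treated control siRNA arrays. The change was 1.44 ± 0.12 (SE, limma adjusted p = 0.0273).

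LINC01588 had signals of 5.83 and 5.85 on untreated and 7.14 and 7.15 on treated control siRNA arrays. With SRC1 siRNA it had 5.28 and 5.41 untreated against 6.5 and 6.53 treated. The arrays within each group lay close together, and treated and untreated arrays did not overlap. The change was 1.24 ± 0.07 (SE, limma adjusted p = 0.00574). Its probe set is of a class that can bind similar transcripts. A second probe set of the gene had a change of 0.69 ± 0.08 (adjusted p = 0.109) and the remaining, dimmer one did not differ in a fixed direction, with 2 of 4 pairs higher.

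FCGR2B had signals of 4.19 and 4.40 untreated and 5.36 and 5.57 treated with control siRNA. With SRC1 siRNA it had 3.75 and 3.72 untreated and 4.72 and 4.8 treated. The change was 1.10 ± 0.08 (SE, limma adjusted p = 0.0144), again with no overlap between treated and untreated arrays. FCGR2B has close paralogs in the same cluster and its probe set can bind more than 1 transcript, so the gene behind this signal is uncertain. The signal was dim, although above the median probe set.

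**Figure D2:**
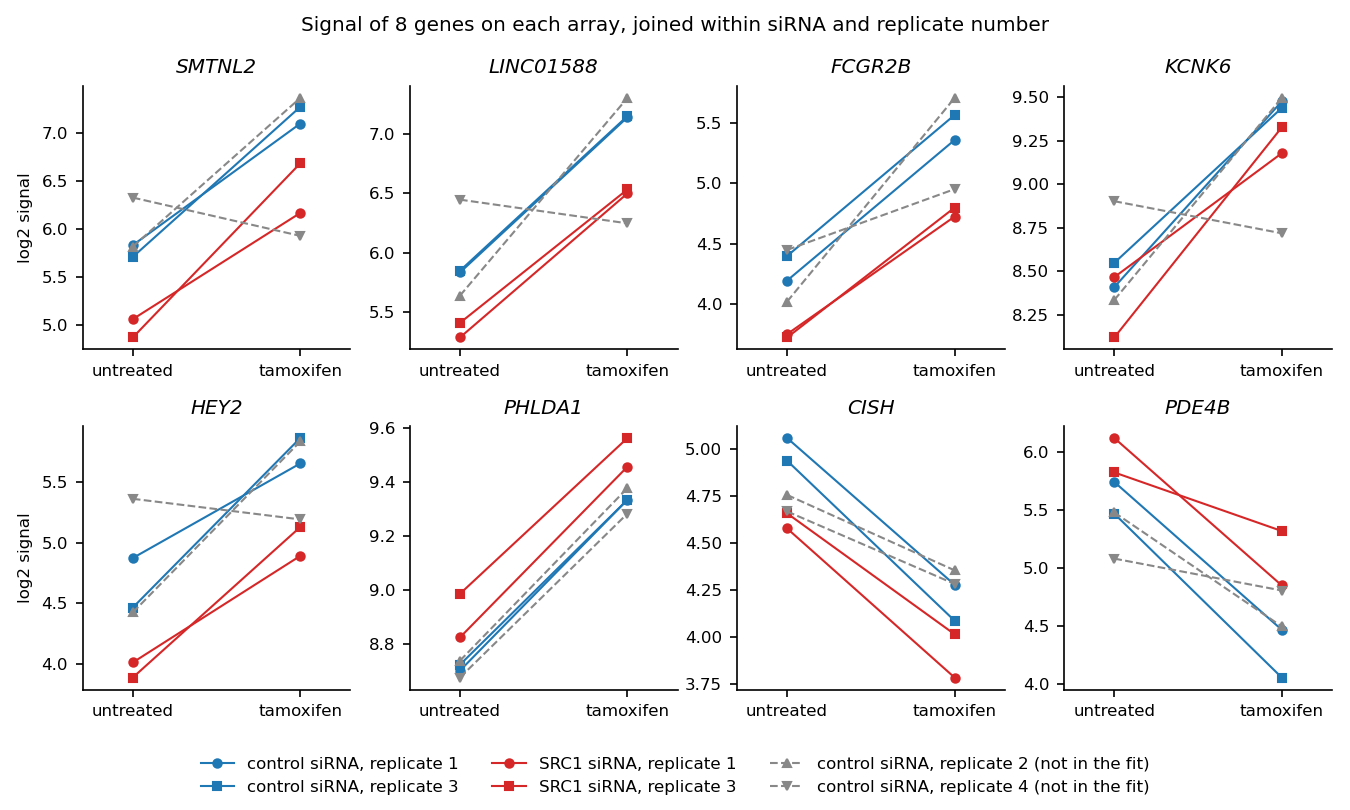
The log2 signal (vertical axis) of 8 genes on each array is joined within siRNA and replicate number, from untreated to tamoxifen, in blue for control siRNA and red for SRC1 siRNA. Grey dashed lines are the control siRNA pairs of replicates 2 and 4, outside the fit. For SMTNL2, LINC01588, KCNK6 and HEY2 the replicate 4 line runs slightly down while the others run up.

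Of the next 9 genes by unadjusted p, none passed, and their values are given as measured. The 4 described first are regulators of transcription or RNA, a grouping for order only, as the share of such genes was not counted. NRIP1, which encodes the nuclear receptor corepressor RIP140, was among the brightest. It read 10.89, 11.10, 10.85 and 10.83 untreated (control siRNA replicates 1 and 3, then SRC1 siRNA replicates 1 and 3) and 11.70, 11.71, 11.68 and 11.54 treated. All treated arrays were above all untreated ones, with a change of 0.74 ± 0.08 (SE, limma adjusted p = 0.109). RARA, retinoic acid receptor alpha, had a change of 0.58 ± 0.09 (adjusted p = 0.306). HEY2, a basic helix-loop-helix repressor downstream of Notch, read 4.87, 4.46, 4.01 and 3.89 untreated and 5.65, 5.86, 4.89 and 5.13 treated. Its lowest treated value, from SRC1 siRNA replicate 1, was just above its highest untreated one, and its change was 1.07 ± 0.11 (adjusted p = 0.109). RBM24, an RNA-binding protein, had a change of 0.81 ± 0.12 (adjusted p = 0.274), and its treated and untreated arrays overlapped.

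The other 5 were PHLDA1, KCNK6, ASB13, INSYN2A and IGH. PHLDA1, a pleckstrin homology-like protein, read 8.70, 8.72, 8.82 and 8.99 untreated and 9.33, 9.33, 9.46 and 9.56 treated, in the same order of arrays. Its 4 pairs differed by 0.58 to 0.63, and its change was 0.61 ± 0.07 (SE, limma adjusted p = 0.141). All 5 of its other probe sets were higher as well, each with an unadjusted p under 0.05. KCNK6, a potassium channel, had a change of 0.97 ± 0.10 (adjusted p = 0.0925). ASB13, a SOCS-box protein, had a change of 0.93 ± 0.12 and INSYN2A, an inhibitory synapse protein, one of 0.87 ± 0.12. IGH, the immunoglobulin heavy chain locus, had 0.64 ± 0.08 on 1 probe set, while its second probe set above the median had -0.04 ± 0.10. Treated and untreated arrays did not overlap for 11 of the 12 higher genes, all but RBM24, beside 1.79% of all probe sets. These genes were picked in part on this contrast, so that count is a description.

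Among the 12 lower genes none passed. PDE4B, a phosphodiesterase that degrades cyclic AMP, had the largest difference. It read 5.74, 5.47, 6.12 and 5.83 untreated and 4.47, 4.05, 4.85 and 5.32 treated (control siRNA replicates 1 and 3, then SRC1 siRNA replicates 1 and 3). The treated SRC1 siRNA replicate 3 array lay closest to the untreated ones, and the change was -1.12 ± 0.16 (SE, limma adjusted p = 0.274). CISH, a SOCS-family inhibitor of cytokine signalling, read 5.06, 4.94, 4.58 and 4.66 untreated and 4.28, 4.09, 3.78 and 4.02 treated. Its change was -0.77 ± 0.09 (limma adjusted p = 0.143). Both of its other probe sets above the median were lower with an unadjusted p under 0.05. The named probe set and the brightest one are, as for LINC01588, of the class that can bind similar transcripts. ID1, an inhibitor of basic helix-loop-helix factors and a target of BMP signalling, read 9.94, 9.79, 10.18 and 9.92 untreated against 8.95, 8.95, 9.39 and 9.57 treated. Its change was -0.74 ± 0.11 (adjusted p = 0.274), smallest in the SRC1 siRNA replicate 3 pair at -0.35.

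The remaining 9 lower genes had changes between -0.62 and -0.44. They were AFF3, a nuclear protein, SELENOH, a nucleolar selenoprotein, HOXB9, a homeobox factor, PLPP3, a lipid phosphatase, CAB39, a partner of the kinase LKB1, FRAT1, an inhibitor of GSK3, SLITRK6, a membrane protein of neurons, CDAN1, codanin, and THBS1, thrombospondin. Adjusted p ran from 0.274 for HOXB9 and SELENOH to 0.475 for CDAN1 and THBS1. SELENOH read 5.84, 5.66, 5.86 and 5.97 untreated and 5.31, 5.16, 5.16 and 5.26 treated, with no overlap. Its 3 brightest probe sets, however, had differences of -0.07 ± 0.07, 0.08 ± 0.11 and -0.05 ± 0.10. In 4 other genes, too, the named probe set was not the brightest, and the brightest differed less. It had a difference of -0.0052 ± 0.084 for AFF3, -0.11 ± 0.08 for SLITRK6, -0.16 ± 0.10 for CAB39 and -0.17 ± 0.14 for THBS1, each with an unadjusted limma p above 0.05. The probe sets of these 5 genes thus disagreed, and the values given hold for the named probe set. Treated and untreated arrays did not overlap for 9 of the 12 lower genes, beside 1.91% of all probe sets. The lower genes, too, were picked in part on this contrast, so that count is a description. The 3 that overlapped were HOXB9, FRAT1 and THBS1, each of which differed in level between the siRNAs.

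**Figure D3:**
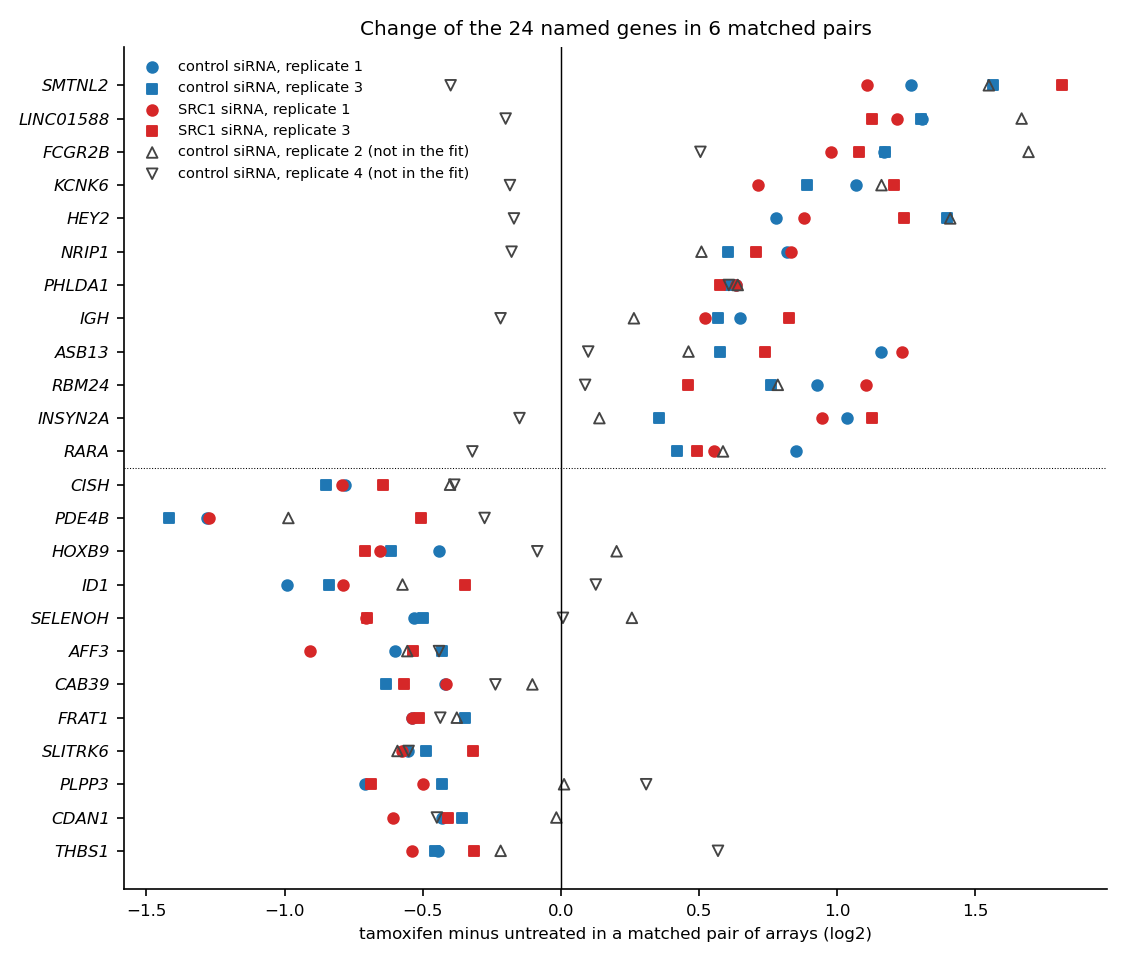
Points give the tamoxifen minus untreated log2 difference in each matched pair of arrays (horizontal axis) for the 12 genes named higher and the 12 named lower (vertical axis). Filled points are the 4 pairs in the fit, which chose the genes, and open triangles are the control siRNA pairs of replicates 2 and 4. For the higher genes, replicate 2 lies to the right of 0 for 12 of 12 and replicate 4 for 4 of 12.

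The tamoxifen change was then set side by side under both siRNAs. With control siRNA alone, limma called 0 probe sets and 2311 reached an unadjusted p under 0.05 (4.23%). With SRC1 siRNA alone it called 0, with 3629 at that level (6.64%). The test of the difference, the interaction of treatment and siRNA, also called 0, with 2470 (4.52%) at an unadjusted p under 0.05. SMTNL2 had a change of 1.42 with control siRNA and 1.46 with SRC1 siRNA, a difference of 0.05 (95% interval -0.55 to 0.64). LINC01588 had 1.31 and 1.17, a difference of -0.14 (-0.48 to 0.21). FCGR2B had 1.17 and 1.03, a difference of -0.14 (-0.52 to 0.24). PDE4B had -1.35 and -0.89, with a difference of 0.46 (-0.24 to 1.16). ID1 had -0.92 and -0.57, a difference of 0.35 (-0.10 to 0.79), and INSYN2A 0.70 and 1.04, a difference of 0.34 (-0.21 to 0.89). The intervals of these genes leave room for a difference in either direction, so a p that missed the threshold does not show equal responses.

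The level around which the named genes moved differed between the siRNAs for some of them. For this siRNA term, limma called 4.67% of all probe sets, 2.23% lower and 2.45% higher with SRC1 siRNA. Of the 12 genes named higher with tamoxifen, 6 had a lower level with SRC1 siRNA at an adjusted p under 0.05. The log2 difference, SRC1 minus control siRNA, was -0.78 for SMTNL2 (limma adjusted p = 0.0113), -0.56 for LINC01588 (adjusted p = 0.00642) and -0.63 for FCGR2B (adjusted p = 0.00551). It was -0.73 for HEY2 (adjusted p = 0.0123), -0.68 for RBM24 (adjusted p = 0.0171) and -0.56 for ASB13 (adjusted p = 0.0385). None of the 12 passed with a higher level. Of the 12 lower genes, AFF3 and THBS1 (-0.49 each) were lower with SRC1 siRNA, and HOXB9 (1.20) and FRAT1 (0.34) were higher. In SMTNL2 and LINC01588, each treated SRC1 siRNA array read above every untreated control siRNA array of replicates 1 and 3. In HEY2 the treated SRC1 siRNA arrays, at 4.89 and 5.13, were barely above the 4.87 of untreated control siRNA replicate 1.

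**Figure D4:**
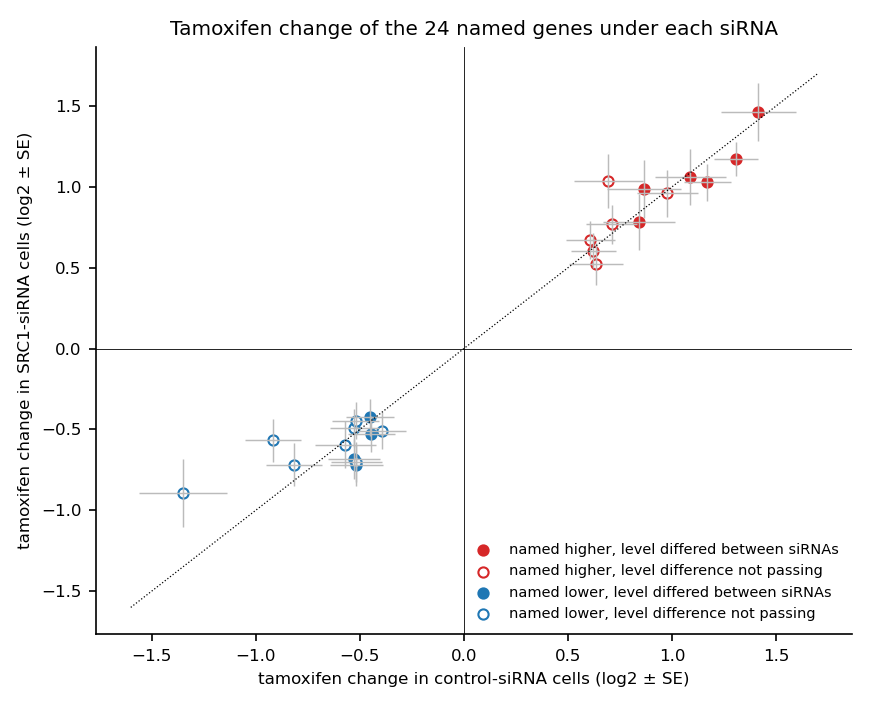
The log2 tamoxifen change with control siRNA (horizontal axis) and with SRC1 siRNA (vertical axis), each from 2 arrays against 2, is plotted for the 24 named genes with limma SE bars, and the dotted line marks equal change. Filled points are genes whose level differed between the siRNAs at an adjusted p under 0.05, 6 of 12 higher (red) and 4 of 12 lower (blue). PDE4B, at -1.35 and -0.89, lies far from the line.

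Replicate numbers 2 and 4 of the control siRNA groups gave 2 further treated and untreated pairs that had no part in choosing the genes. In replicate 2 all 12 higher genes read higher after tamoxifen, with a median of 0.71, beside 52% of all probe sets. SMTNL2 differed by 1.55 there, LINC01588 by 1.67, FCGR2B by 1.69 and HEY2 by 1.41. In replicate 4 only FCGR2B (0.51), PHLDA1 (0.61), ASB13 (0.10) and RBM24 (0.09) of the 12 read higher, beside 51.4% of all probe sets, and the median was -0.17. SMTNL2 read -0.40 and LINC01588 -0.20. The 12 lower genes were lower for 9 in replicate 2 (background 48%) and for 8 in replicate 4 (48.6%), with medians of -0.30 and -0.26. CISH, PDE4B, AFF3, CAB39, FRAT1, SLITRK6 and CDAN1 were lower in both, 7 of 12 beside 25% of all probe sets. FCGR2B, PHLDA1, ASB13 and RBM24 were higher in both, 4 of 12 beside 28.4%. Beyond the named genes the match was weak. Of the 1583 probe sets higher at an unadjusted limma p under 0.05, 35.4% were higher in both. Of the 1822 lower ones, 33.3% were lower in both. Over the 27306 probe sets above the median signal, the change in the fit and the mean change of these 2 pairs had a Pearson r of 0.107.

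The arrays of replicate 4 were high without the drug and low with it at the higher genes. The untreated control siRNA array of replicate 4 was the highest of its 4 replicates for 10 of the 12 genes, beside 24.7% of all probe sets. The untreated SRC1 siRNA array of that number was the highest of its 4 for 10 of 12 (26.2%). The treated control siRNA array was the lowest of its 4 for 12 of 12 (27.0%). The 12 genes were picked for a higher treated than untreated signal on the arrays of numbers 1 and 3. That choice favours these places for an array outside the fit, and the shares of all probe sets do not carry it. These counts are therefore a description. SMTNL2 read 6.32 and LINC01588 6.45 on the untreated control siRNA array, above the 5.64 to 5.85 of the other LINC01588 replicates, and 5.92 and 6.25 on the treated one. FCGR2B read 5.11 on the untreated SRC1 siRNA array of replicate 4, above the 4.72 and 4.80 of the treated SRC1 siRNA arrays. PHLDA1 did not share the pattern when untreated with control siRNA, at 8.67 beside 8.70 to 8.74. The fit of the main comparison leaves the arrays of number 4 out. Whether all arrays were normalized together before deposit is not given in the sources used here. A fit of the arrays of numbers 1 to 3, chosen after seeing the data, called 15 probe sets, 10 higher and 5 lower. A fit of all 14 arrays with the replicate number called 4, 2 higher (PHLDA1 and a probe set with no gene name) and 2 lower (CISH and SLITRK6), and none of SMTNL2, LINC01588 and FCGR2B.

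Classical estrogen-induced genes were the list with the most members at an unadjusted p under 0.05 in 1 direction. Of its 26 measured genes, 9 were higher at that level and 0 lower, beside 2.49% higher and 2.9% lower of all genes by their brightest probe set. None passed after adjustment, and the list was chosen with results of these data known. The 9 were NRIP1 (0.74), RARA (0.58), PDZK1, a scaffold protein (0.50), IGFBP4, an insulin-like growth factor binding protein (0.44), STC2, stanniocalcin (0.42), GREB1, an estrogen receptor cofactor (0.38), RET, a receptor kinase (0.33), KRT13, a keratin (0.28), and MYB, a transcription factor (0.25). The list's median change was 0.14, beside 0.00088 for all genes, and was 0.17 with control siRNA and 0.10 with SRC1 siRNA. Of the 26 members, 17 had a change above 0. In all 4 pairs 11 members were higher and 3 lower, beside 5.65% and 7.02% of all genes. Some other classical members had small values, -0.02 ± 0.07 for TFF1, 0.02 ± 0.07 for the cyclin CCND1 and 0.17 ± 0.13 for PGR. PGR, the progesterone receptor, had a signal of 3.85, near the median probe set. In the 4 pairs the list's median was 0.20, 0.24, 0.17 and 0.02, lowest in SRC1 siRNA replicate 3. It was 0.13 in replicate 2 and -0.09 in replicate 4 outside the fit. With the arrays of replicate 1 alone 11 members were higher at that level, and with those of replicate 3 alone 5.

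Immediate early genes, which growth factor signals induce within minutes, had 6 of 28 members lower at an unadjusted p under 0.05 and 1 higher, IER3 (0.17). In the same fit 2.9% of all genes were lower and 2.49% higher at that level. The 6 were MYC (-0.53), NR4A1, an orphan nuclear receptor (-0.50), KLF2 (-0.47), CCN2 (-0.39), KLF6 (-0.28) and JUNB (-0.24). The median change was -0.13, but it was -0.42 and -0.24 in the replicate 1 pairs and 0.03 and -0.09 in the replicate 3 pairs (control siRNA, then SRC1 siRNA). FOS differed by -2.09 and -1.61 in replicate 1 and by 0.56 and -0.21 in replicate 3. With the arrays of replicate 1 alone 14 members were lower at that level, and with those of replicate 3 alone 1. Leaving out 1 array gave 1 (control siRNA untreated replicate 1), 2 (control siRNA tamoxifen replicate 1), 3 (SRC1 siRNA replicate 1, untreated or treated) or 11 (control siRNA tamoxifen replicate 3). In the pairs outside the fit the median was 0.08 and 0.11. Inhibitors that feed back on MAP kinase signalling ran likewise, with a median of -0.16 over 13 genes. Their median was -0.24 and -0.16 in the replicate 1 pairs and 0.13 and -0.10 in the replicate 3 pairs (control siRNA, then SRC1 siRNA). Outside the fit it was above 0, at 0.13 in replicate 2 and 0.28 in replicate 4. 3 were lower at that level, DUSP10 (-0.36), DUSP5 (-0.32) and SPRY4 (-0.27), and PHLDA1 was the 1 higher. With replicate 3 alone 0 were lower, and 1 without control siRNA replicate 1, untreated or treated, or SRC1 siRNA tamoxifen replicate 1. Without control siRNA untreated replicate 3, 5 were.

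**Figure D5:**
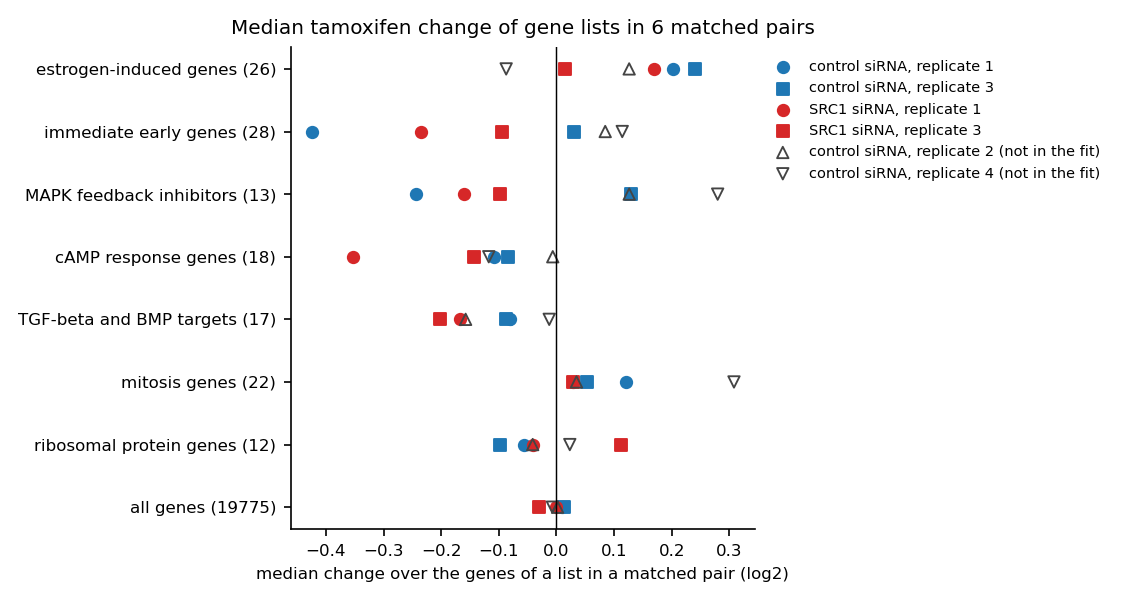
Points give the median log2 difference, tamoxifen minus untreated, over the genes of a list (horizontal axis) in each of the 6 matched pairs, with the number of genes in brackets. Filled points are the 4 pairs in the fit and open triangles the pairs of replicates 2 and 4. Immediate early genes span -0.42 to 0.11, while the median of all genes stays near 0.

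Targets of TGF-beta and BMP signals had 6 of 17 members lower at an unadjusted p under 0.05, beside 2.9% of all genes. These were ID1 (-0.74), HEY1, a relative of HEY2 (-0.71), ID3 (-0.41), CCN2 (-0.39), ID2 (-0.21) and BAMBI, a pseudoreceptor that dampens the pathway (-0.18). SMAD7, its inhibitory SMAD, was higher (0.26), and the list's median was -0.10. The value of HEY1 came mostly from SRC1 siRNA replicate 3, at -1.76 beside -0.56 to -0.23 in the other pairs. With replicate 3 alone 2 members of the list were lower, and 3 without the untreated control siRNA replicate 3 or SRC1 siRNA replicate 1 array. The median was -0.03 without SRC1 siRNA tamoxifen replicate 3 and -0.17 without SRC1 siRNA untreated replicate 1. Genes of the cyclic AMP response had 4 of 18 lower and 0 higher, with a median of -0.16. They were PDE4B, SIK1, a salt-inducible kinase (-0.55), NR4A1 and PTGS2 (-0.49), the last with a signal of 2.51, below the median probe set. With replicate 1 alone 7 were lower and with replicate 3 alone 1. Without SRC1 siRNA replicate 1, untreated or treated, 2 were. Leaving out the untreated SRC1 siRNA replicate 3 moved the median to -0.06, and leaving out the untreated control siRNA replicate 3 moved it to -0.24. Among Notch and Wnt targets 2 of 14 were higher, HEY2 (0.92 on its brightest probe set) and HEYL (0.30), and 2 lower, HEY1 and HES1 (-0.33). Of all genes, 2.49% were higher and 2.9% lower.

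Among the estrogen receptor and its coregulators, 1 of 19 was higher at that level (NRIP1) and 1 lower, the methyltransferase CARM1 (-0.20). Of all genes, 2.49% were higher and 2.9% lower, the shares to set beside each count of this paragraph. Genes that estrogen represses had 0 of 16 higher and 2 lower, ERBB2 (-0.33) and TGFB2 (-0.20). Of aryl hydrocarbon receptor targets 1 of 10 was higher, TIPARP (0.27). CYP1A1 and CYP1B1, its best known targets, differed by 0.22 ± 0.16 and 0.18 ± 0.13. Lists of ribosomal protein, mitosis, NRF2, p53, BCL2 family, unfolded protein response, sterol synthesis and interferon response genes had 0 members at that level in either direction. Luminal markers had ELF3 (0.27) and CLDN3 (0.33) higher and OVOL2 (-0.38) lower, 3 of 20. Basal and mesenchymal markers had TWIST1 (0.24) higher and VIM (-0.34) and ZEB1 (-0.27) lower, 3 of 16. None of these members passed after adjustment.

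Some larger differences had wide errors. RAB37, a small GTPase, differed by 1.8 ± 0.31 (SE, limma adjusted p = 0.466), with 1.53 for control siRNA and 2.07 for SRC1 siRNA. SOX9, a transcription factor, differed by -0.92 for control siRNA and by -1.08 for SRC1 siRNA (adjusted p of the common change = 0.668). These 2 genes were picked for their size after their values were seen, from the 13 probe sets that differed at least 2-fold.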

How the data were processed

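Amplified, biotin-labelled total RNA of LY2 cells was hybridised, per the labels' protocols, to Affymetrix HG-U133 Plus 2.0 arrays. The authors deposited log2 signals, 1 for each array and probe set. The log base was inferred from their range, 0.91 to 15.5. The submitters' processing notes name R 2.9.2, and how background and normalization were treated is not given in the sources used here. Values were used as deposited, and the number of arrays limits their precision. Of 54675 probe sets, 62 array controls were left out. Of the rest, 41091 had 1 gene symbol, 1801 several and 11721 none.

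Groups and replicate numbers came from the labels. A linear model with treatment, siRNA and replicate number was fitted to the 8 arrays with limma 3.58.1 (lmFit, eBayes; statmod 1.5.0, R 4.3.3), leaving 4 residual degrees of freedom, and a second one added the interaction. Tests were two-sided, with Benjamini-Hochberg adjustment over 54613 probe sets and a threshold of 0.05. Arrays of one number did not deviate together: over the 6 pairs of groups the correlation of their deviations from the group means was -0.417 to -0.0389. Whether differences between the numbers had been taken out before deposit is not given in the sources used here. If they were, fits that omit the number give p-values that are too small. The number was kept as a term because the comparison was defined so.

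Named genes are, in each direction, the 12 with the largest change among passing probe sets with 1 symbol, a mean above the median and the same direction in all 4 pairs. Free places went to the smallest unadjusted p. NCOA1, ESR1, up to 4 members of each list by smallest p and the 3 smallest interaction p were added. Further list members, RAB37 and SOX9 were picked after their values were seen. Of the 587 genes on 34 lists, 537 were analysed, each by its brightest probe set, and 50 were not analysed here. The members and lists were chosen with earlier results of these data known. The fits were first tested on simulated data with known changes. Alternatives were no replicate term, quantile normalization, median centring, a filter on dim probe sets, eBayes with trend and robust, array weights, all 14 arrays, the fit with the interaction, averaging a gene's probe sets, and leaving out each array or number. Leaving out the arrays of number 4 and the AGGTCA motif were added after seeing the data.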

Additional observations from a re-analysis of the deposited data

Results flagged for a closer look

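Among the 24 named genes, each with 4 matched pairs, 2 had a pair far from the others. Chance flags about 1 in 20 sets of 4 unselected values. These genes were picked for the same direction in all 4 pairs, so that rate may not hold for them. PDE4B differed by -0.51 in the SRC1 siRNA replicate 3 pair, and the nearest other pair was -1.28. FRAT1 differed by -0.35 in the control siRNA replicate 3 pair, and the nearest other pair was -0.51.

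In 3 genes the tamoxifen change went opposite ways under the siRNAs in both replicates. They were chosen for the smallest interaction p of all named probe sets, and none passed after adjustment (limma interaction, adjusted p = 0.948 for each). SPRY4-IT1, a long non-coding RNA, differed by -0.95 and -0.94 with control siRNA and by 0.41 and 0.27 with SRC1 siRNA, an interaction of 1.29. In the control siRNA pairs outside the fit it differed by -0.36 and -0.37. SRSF5, a splicing factor, differed by -0.87 and -0.73 with control siRNA and by 0.26 and 0.49 with SRC1 siRNA, an interaction of 1.18. Outside the fit it differed by 0.19 and 0.21, against the direction of the control siRNA pairs. NMNAT1, an enzyme of NAD synthesis, differed by 0.47 and 0.25 with control siRNA and by -0.78 and -0.71 with SRC1 siRNA, an interaction of -1.10. Outside the fit it differed by -0.12 and -0.62, again against the control siRNA pairs.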

How the results depend on the processing

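The tamoxifen comparison called 3 probe sets and also 3 after quantile normalization, median centring, a filter on dim probe sets or array weights. Without the replicate block it called 10 (9 higher, 1 lower), with trend and robust 7, and from the fit with the interaction 1. All 14 arrays gave 4 with the replicate number and 164 without (79 higher, 85 lower). Without the arrays of number 4 they gave 15 and 72. Counts from fits that omit the number are too high if differences between numbers were taken out before deposit. Leaving out 1 array or all arrays of one number gave 0 to 2. Control siRNA alone moved from 0 to 1 without the replicate block, with trend and robust, and over all 14 arrays. SRC1 siRNA alone and the interaction had 0 under every alternative run. Over 21 alternatives LINC01588 passed in 13, FCGR2B in 9 and SMTNL2 in 8. All 24 named genes kept their direction in each. They were picked for the same direction in all 4 pairs, and the alternatives reuse these arrays in whole or in part. Their direction was thus largely set by the choice. Averaging a gene's probe sets, the median of estrogen-induced genes was 0.09 in place of 0.14 and that of immediate early genes -0.19 in place of -0.13. The cause of these shifts was not tested.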
